A study of Mus musculus with 8 samples.

Results

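The transcription factors of the formative epiblast examined here are Otx2, Pou3f1, Zic2, Zic5, Foxd3 and Grhl2. They were taken by gene symbol from the deposited expression values, which gave 6 genes of the 38991 measured, and each symbol was matched by 1 gene. RNA was sequenced from 8 cultures of RGd2 cells, a mouse embryonic stem cell (ESC) line of strain 129 labelled Rex1GFPd2, in which a destabilised GFP is expressed from the Rex1 (Zfp42) locus. All cultures were expanded for 6 passages in 2i, the pair of inhibitors CH (CHIR99021, which blocks the kinase GSK3) and PD (PD0325901, which blocks the kinase MEK). They were then kept for 5 passages, to passage 11, on gelatin in serum-free N2B27 medium with 2i plus the cytokine LIF (2i+LIF), 2i without LIF, LIF with PD but without CH (LIF+PD), or LIF with CH but without PD (CH+LIF). Where present, CH was at 3 µM and PD at 1 µM, and cells were split every 3 days at 15000 cells per square centimetre. Each condition had 2 cultures. Every culture is therefore of the same line and has a history in 2i, and the labels number the cultures of a condition without saying whether they were started independently, so the p-values measure the spread between these samples, which may be technical.

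Mouse ESCs in 2i correspond to the naive epiblast of the blastocyst. As the embryo implants, naive factors are shut down and a second set of transcription factors takes over enhancers, a phase called formative, before germ layers are specified. Otx2 is a homeodomain factor that drives exit from the naive state and redirects Oct4 to new enhancers. Pou3f1 (Oct6) is a POU-domain factor of the post-implantation epiblast that favours neural fate. Zic2 and Zic5 are zinc finger factors of the epiblast and later of the neural plate, and Zic2 occupies enhancers in ESCs. Foxd3 is a forkhead factor that is required in the epiblast and is already made by naive ESCs. Grhl2 is a grainyhead factor that opens enhancers of epithelial genes when naive cells become epiblast-like. LIF acts through JAK and STAT3, CH stabilises beta-catenin and relieves repression by TCF7L1, and PD stops ERK signalling.

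The expression unit is FPKM, the number of fragments divided by transcript length and by library size, so that levels can be compared between genes per length. The sum of FPKM per culture lay between 715575 and 875458, 11659 to 12109 genes reached an FPKM of 1, and estimated relative depth ranged from 0.499 in replicate 1 of 2i to 1.18 in replicate 2 of CH+LIF, with replicate 1 of 2i+LIF as the reference. Replicate 1 of 2i stood apart in estimated depth, the next lowest being 0.903 in replicate 2 of LIF+PD. No culture stood apart by Pearson's r over genes. It was 0.974 to 0.983 between cultures of a condition, lowest for 2i, and 0.930 to 0.954 between conditions. The cultures carried the readouts of their labels. Socs3, a STAT3 target, was at 2.59 and 1.29 FPKM in the cultures without LIF and between 63.9 and 119 in the others. Axin2, a beta-catenin target, was at 1.85 and 2.47 FPKM in the cultures without CH and between 59.4 and 68.4 in the others. Spry4, an ERK target, was at 37.5 and 40.7 FPKM in the cultures without PD and at most 2.17 in the others. The summed level of 5 ESC markers was 2784 to 3489 FPKM. In bulk RNA, fewer cells that express a gene and less RNA per cell cannot be told apart.

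The genes lie on 3 chromosomes of the mm10 assembly. Otx2 spans chr14:48657679-48667644 on the minus strand, and Grhl2 spans chr15:37233036-37363569 on the plus strand. Pou3f1 at chr4:124657646-124660655 and Foxd3 at chr4:99656299-99658671 are both on the plus strand and have a single exon in the GENCODE M21 annotation. Zic5 at chr14:122456795-122465677 on the minus strand and Zic2 at chr14:122475435-122479852 on the plus strand are neighbours that point away from each other, with 9757 bases between them. RefSeq's promoter table (GRCm38.p6) held 3 of the 6 genes, Otx2, Zic5 and Foxd3. The 250 bases before the outermost start of each are shown because Otx2 and Zic5 rose in 2i and LIF+PD whereas Foxd3 fell in 2i, with the dinucleotide CG, the site of DNA methylation, in capitals. The window of Otx2 is chr14:48667645-48667894 (minus strand), that of Zic5 chr14:122465659-122465908 (minus strand) and that of Foxd3 chr4:99656049-99656298 (plus strand).
Otx2: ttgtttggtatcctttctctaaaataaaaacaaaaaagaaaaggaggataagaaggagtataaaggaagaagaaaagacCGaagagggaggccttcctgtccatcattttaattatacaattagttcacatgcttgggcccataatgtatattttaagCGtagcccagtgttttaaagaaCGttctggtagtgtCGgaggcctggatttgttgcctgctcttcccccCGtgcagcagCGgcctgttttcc
Zic5: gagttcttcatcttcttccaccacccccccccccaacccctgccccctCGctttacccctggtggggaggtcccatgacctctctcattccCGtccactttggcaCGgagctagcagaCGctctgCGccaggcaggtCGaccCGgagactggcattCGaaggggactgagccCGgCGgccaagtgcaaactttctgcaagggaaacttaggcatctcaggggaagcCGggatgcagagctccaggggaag
Foxd3: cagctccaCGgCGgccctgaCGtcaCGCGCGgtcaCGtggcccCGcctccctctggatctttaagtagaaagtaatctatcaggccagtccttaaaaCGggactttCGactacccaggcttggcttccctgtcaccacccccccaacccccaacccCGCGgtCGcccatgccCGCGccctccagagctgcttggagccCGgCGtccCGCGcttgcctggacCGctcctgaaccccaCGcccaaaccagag
The Otx2 window held 6 CG and was 42.0% G or C, the Zic5 window 11 CG and 62.4%, and the Foxd3 window 21 CG and 65.6%. Over all 32851 promoters the median was 6 CG, with quartiles of 2 and 16, and 52.4% G or C. Otx2 thus had the median number of CG and Foxd3 a number above the upper quartile. Of the Zic5 window, 19 bases are exonic in another annotated transcript of the gene, and the other windows hold no exonic base of their gene. The windows were searched on both strands for the motifs CTTTGA (TCF/LEF factors, in 13.8% of all promoters), TTCNNNGAA (STAT factors, 7.02%), GGAAGT (ETS factors, 19.7%), TAATCC (OTX factors, 6.25%), ATGCAAA (POU factors, 4.12%) and AACCGG (grainyhead factors, 5.62%). None of the 6 motifs was found in these 3 windows, which says only that these letters are not there. The table holds 4 starts of Otx2, and the 250 bases before an internal start, at base 48665109, hold a STAT match (TTCTTGGAA, 113 to 105 bases upstream) and, on the reverse strand, an OTX match (GGATTA, 211 to 206 bases upstream). That stretch is exonic over all of its 250 bases in other Otx2 transcripts, and a match is a description of the letters only.

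**Figure D1:**
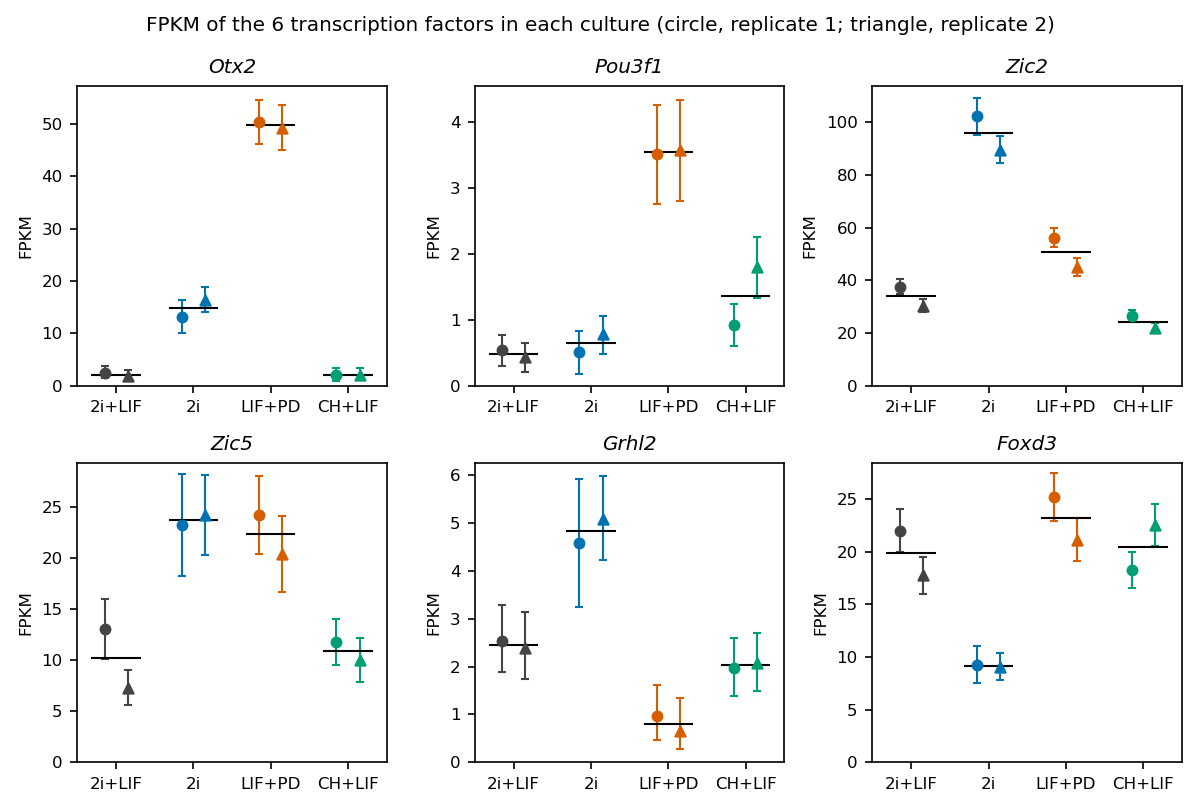
FPKM (vertical axis, linear from 0, a scale of its own in each panel) of the 6 genes in the 8 cultures, by condition (horizontal axis). Circles are replicate 1 and triangles replicate 2, vertical bars run from the deposited lower to the deposited upper bound of each value, and black lines are means of 2 cultures. Otx2 and Pou3f1 were highest in LIF+PD, Zic2 and Grhl2 were highest in 2i, Zic5 was high in both, and Foxd3 was lowest in 2i.

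Without LIF, 5 of the 6 genes changed against 2i+LIF, 4 of them upward (Otx2, Zic2, Zic5, Grhl2) and 1 downward (Foxd3). Across all 12927 genes tested, 18.6% were called in this comparison, 9.77% as higher and 8.86% as lower. Without CH, 5 of the 6 genes also changed, but not the same 5: Otx2, Pou3f1, Zic2 and Zic5 were higher and Grhl2 was lower, against a background of 25.2% called, 14.8% as higher and 10.4% as lower. Without PD, limma called 0 of the 6 genes, against 25.4% of all genes, and 2 of them (Pou3f1 and Zic2) had an unadjusted p below 0.05. Some of these counts changed when 1 culture of the conditions compared was left out, and fewer of all genes were called then as well. These comparisons share the 2i+LIF cultures. Calls here and below are at a Benjamini-Hochberg adjusted p below 0.05 in a limma fit of log2(FPKM + 1) to all 8 cultures, and all log2 differences are on that scale, in which the change of weakly expressed genes is damped. With pseudocounts of 0.1 and 5 in place of 1, the difference between LIF+PD and 2i+LIF was 2.64 and 0.64 for Pou3f1 and -1.51 and -0.36 for Grhl2, and that of Otx2 between 2i and 2i+LIF was 2.75 and 1.47, all of them called. An F-test for any difference among the 4 conditions called 6 of the 6 genes and 46.8% of all genes. To be tested, a gene needed 2 or more cultures with an FPKM of 1 or above. All 6 genes passed, Pou3f1 only through 3 cultures of the conditions in which it was high and Grhl2 through 6 cultures.

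**Figure D2:**
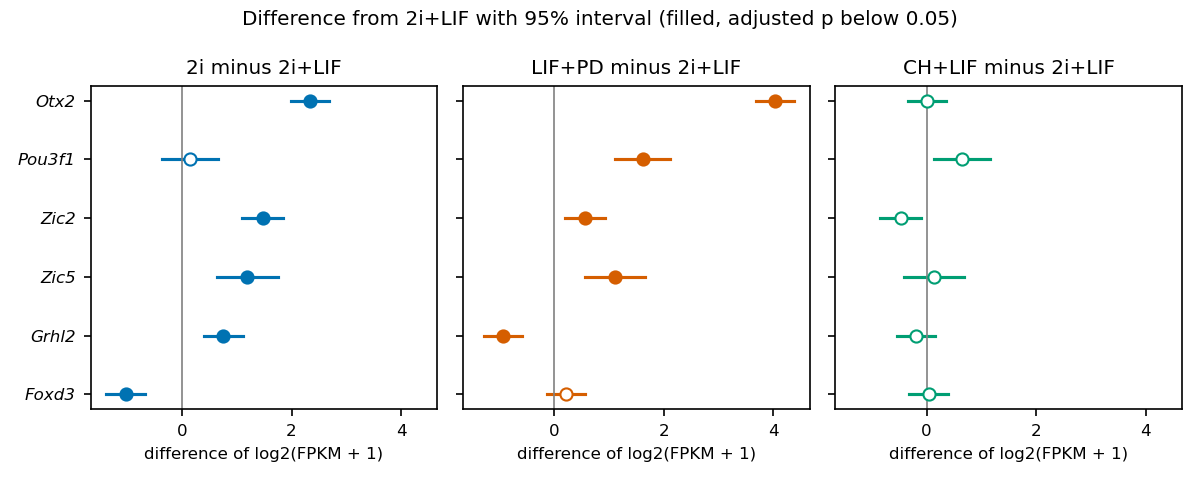
Difference of log2(FPKM + 1) from 2i+LIF (horizontal axis) for the 6 genes in 2i, LIF+PD and CH+LIF, with lines for the 95% intervals of the limma fit. Filled points have an adjusted p below 0.05: 5 genes in each of 2i and LIF+PD and 0 in CH+LIF, and Grhl2 lies to the right of 0 in 2i and to the left of 0 in LIF+PD.

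Otx2 was at 2.44 and 1.80 FPKM in the cultures in 2i+LIF, at 13.2 and 16.4 FPKM in 2i, at 50.3 and 49.2 FPKM in LIF+PD, and at 2.15 and 2.11 FPKM in CH+LIF. Every culture in LIF+PD was above every culture in 2i, which in turn were above all cultures in 2i+LIF and CH+LIF, and the values of 2i+LIF and CH+LIF overlapped. The mean of 14.8 ± 2.25 FPKM in 2i (SD, n = 2) was 6.97 times that of 2i+LIF, a log2 difference of 2.34 (SE 0.15, limma adjusted p = 0.000169). The mean of 49.8 ± 0.789 FPKM in LIF+PD (SD, n = 2) was 23.5 times that of 2i+LIF, a log2 difference of 4.03 (SE 0.15, limma adjusted p = 2.27e-05). Otx2 thus rose when either LIF or CH was left out, and the step from 2i to LIF+PD, 3.37-fold, was itself called (log2 difference 1.69, limma adjusted p = 0.000400). For CH+LIF the log2 difference from 2i+LIF was 0.01, with a 95% interval of -0.33 to 0.36 (limma adjusted p = 0.961). The deposited bounds spanned 45.1 to 54.5 FPKM in LIF+PD, 10.1 to 18.8 in 2i, 0.978 to 3.87 in 2i+LIF and 0.845 to 3.50 in CH+LIF. Within 5 kb of Otx2 the files list RP23-131O4.2, a noncoding gene on the other strand, at no more than 0.439 FPKM.

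Pax6, an eye and neural progenitor factor, was high in the same conditions as Otx2. Pax6 was at 0.577 and 0.459 FPKM in 2i+LIF, 7.81 and 9.20 in 2i, 11.3 and 10.7 in LIF+PD, and 0.805 and 0.660 in CH+LIF. The summed level of the neural progenitor markers found (5 of 6) was 5.46 to 6.15 FPKM in 2i+LIF, 10.8 to 12.6 in 2i, 19.4 to 19.98 in LIF+PD and 3.55 to 4.34 in CH+LIF. Sox1, which defines early neural progenitors, was at most 1.83 FPKM, in CH+LIF, and was at 0 and 0.0595 FPKM in 2i. Nes, an intermediate filament of neural progenitors, was at 4.90 and 4.10 FPKM in 2i+LIF, 2.78 and 3.14 in 2i, 7.67 and 7.14 in LIF+PD, and 1.42 and 1.41 in CH+LIF, so that in 2i it was below its level in 2i+LIF while Pax6 was above. The part of neural progenitors in the levels of Otx2 was not tested.

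Pou3f1 was the least abundant of the 6 genes per length in every culture in 2i+LIF, 2i and CH+LIF. It was at 0.540 and 0.434 FPKM in 2i+LIF, at 0.509 and 0.787 FPKM in 2i, at 3.52 and 3.58 FPKM in LIF+PD, and at 0.926 and 1.80 FPKM in CH+LIF. The cultures in LIF+PD were above all others, those in CH+LIF came next without overlapping those in 2i or 2i+LIF, and 2i and 2i+LIF overlapped. The mean of 3.55 ± 0.047 FPKM in LIF+PD (SD, n = 2) was 7.29 times that of 2i+LIF, a log2 difference of 1.61 (SE 0.21, limma adjusted p = 0.00234), and Pou3f1 was also higher in LIF+PD than in 2i (5.48-fold, log2 difference 1.47, limma adjusted p = 0.00321). Pou3f1 therefore shared the rise of Otx2 without CH but was not called in 2i, where its log2 difference from 2i+LIF was 0.14 with a 95% interval of -0.36 to 0.65 (limma adjusted p = 0.681). In CH+LIF the difference from 2i+LIF was 0.64 (95% interval 0.14 to 1.15, limma adjusted p = 0.0670), and it passed the threshold when replicate 1 of CH+LIF was left out (0.91, adjusted p = 0.0458) and when values were rescaled to TPM, which gives every culture the same sum (0.83, adjusted p = 0.0477). The difference of -0.97 between CH+LIF and LIF+PD (limma adjusted p = 0.0144) was no longer called without replicate 1 of CH+LIF (-0.70, adjusted p = 0.0749), replicate 1 of LIF+PD (-0.98, adjusted p = 0.0679) or replicate 2 of LIF+PD (-0.96, adjusted p = 0.0721). An antisense gene that starts 477 bases from Pou3f1 and points away from it, RP23-230F2.8, was at most 0.874 FPKM, in 2i, and the use of strand in the FPKM values is not given in the sources used here.

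Zic2 had the highest FPKM of the 6 genes in 6 of the 8 cultures, the exceptions being replicate 2 of LIF+PD, led by Otx2, and replicate 2 of CH+LIF, led by Foxd3. It was at 37.5 and 30.4 FPKM in 2i+LIF, at 102 and 89.4 FPKM in 2i, at 56.04 and 45.1 FPKM in LIF+PD, and at 26.5 and 21.9 FPKM in CH+LIF. The conditions did not overlap and followed the order 2i, LIF+PD, 2i+LIF, CH+LIF. The mean of 95.8 ± 8.97 FPKM in 2i (SD, n = 2) was 2.82 times that of 2i+LIF, a log2 difference of 1.47 (SE 0.16, limma adjusted p = 0.00136), and 1.89 times that of LIF+PD (log2 difference between LIF+PD and 2i of -0.91, limma adjusted p = 0.00633). The increase in LIF+PD over 2i+LIF was smaller, 1.49-fold (log2 difference 0.56, SE 0.16, limma adjusted p = 0.0402). This last call rested on every culture of both conditions: without replicate 1 or 2 of 2i+LIF the difference was 0.71 (adjusted p = 0.0552) or 0.41 (adjusted p = 0.189), and without replicate 1 or 2 of LIF+PD it was 0.41 (adjusted p = 0.193) or 0.71 (adjusted p = 0.0504). In CH+LIF the mean of 24.2 ± 3.25 FPKM (SD, n = 2) was below that of 2i+LIF, with a log2 difference of -0.47 and a 95% interval of -0.84 to -0.10 that was not called (limma adjusted p = 0.0688), and against 2i it was 3.96-fold lower (log2 difference -1.94, limma adjusted p = 0.000410).

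Zic5, the divergent neighbour of Zic2, was at 13.04 and 7.29 FPKM in 2i+LIF, at 23.2 and 24.2 FPKM in 2i, at 24.2 and 20.4 FPKM in LIF+PD, and at 11.8 and 10.02 FPKM in CH+LIF. All cultures in 2i and LIF+PD were above all those in 2i+LIF and CH+LIF, and there was overlap within each of these pairs of conditions. The mean of 23.7 ± 0.683 FPKM in 2i (SD, n = 2) was 2.33 times that of 2i+LIF (log2 difference 1.19, SE 0.23, limma adjusted p = 0.0141), and the mean of 22.3 ± 2.73 FPKM in LIF+PD (SD, n = 2) was 2.19 times that of 2i+LIF (log2 difference 1.11, limma adjusted p = 0.0149). Where Zic2 was called as lower in LIF+PD than in 2i, the log2 difference of Zic5 was -0.09, with a 95% interval of -0.64 to 0.46 (limma adjusted p = 0.817). The ratio of Zic2 to Zic5, on the FPKM scale, was 2.88 and 4.17 in 2i+LIF and 4.40 and 3.70 in 2i, and 2.31 and 2.21 in LIF+PD and 2.25 and 2.18 in CH+LIF. The ratio was thus lower in all 4 cultures of LIF+PD and CH+LIF than in the others, a difference that was not tested. The 2i+LIF cultures of Zic5 had a mean of 10.2 ± 4.07 FPKM (SD, n = 2). The increase in 2i was no longer called without replicate 1 of 2i (1.22, adjusted p = 0.0522) or replicate 2 of 2i (1.17, adjusted p = 0.0596), and that in LIF+PD without replicate 1 of LIF+PD (0.99, adjusted p = 0.0829). Between the Zic genes lies 2610035F20Rik, a noncoding gene 236 bases from Zic2 on the opposite strand, at 0.398 to 2.23 FPKM.

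Grhl2 was the gene whose calls against 2i+LIF had opposite directions. It was at 2.53 and 2.38 FPKM in 2i+LIF, at 4.58 and 5.07 FPKM in 2i, at 0.958 and 0.664 FPKM in LIF+PD, and at 1.97 and 2.07 FPKM in CH+LIF. The conditions did not overlap, with 2i highest and LIF+PD lowest. The mean of 4.82 ± 0.346 FPKM in 2i (SD, n = 2) was 1.97 times that of 2i+LIF (log2 difference 0.75, SE 0.15, limma adjusted p = 0.0145), and the mean of 0.811 ± 0.208 FPKM in LIF+PD (SD, n = 2) was 3.03-fold lower than that of 2i+LIF (log2 difference -0.94, limma adjusted p = 0.00487). The direct comparison of LIF+PD with 2i, 5.95-fold lower, had a log2 difference of -1.69 (limma adjusted p = 0.000409), the opposite sign to the difference of Otx2 between the same cultures. In CH+LIF the log2 difference from 2i+LIF was -0.19, with a 95% interval of -0.54 to 0.16 (limma adjusted p = 0.384). The increase in 2i was no longer called without replicate 1 of 2i+LIF (0.78, adjusted p = 0.0645), replicate 2 of 2i+LIF (0.72, adjusted p = 0.0829) or replicate 2 of 2i (0.69, adjusted p = 0.0654), and the deposited bounds of the 2i and 2i+LIF cultures met, at 3.24 and 3.28 FPKM. An antisense gene that overlaps the 5′ end of Grhl2, Gm16136, was at 1.36 and 1.40 FPKM in the 2i cultures and at no more than 0.206 FPKM elsewhere. Without strand, reads of the overlapping stretch cannot be told apart. Of 3 keratinocyte markers, Krt14 was at 0 in every culture and the sum was at most 0.207 FPKM.

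Foxd3 was the gene that fell in 2i. It was at 21.9 and 17.8 FPKM in 2i+LIF, at 9.22 and 9.08 FPKM in 2i, at 25.2 and 21.1 FPKM in LIF+PD, and at 18.3 and 22.5 FPKM in CH+LIF. Both 2i cultures were below all 6 cultures with LIF, which overlapped with each other. The mean of 9.15 ± 0.099 FPKM in 2i (SD, n = 2) was 2.17-fold lower than the 19.9 ± 2.95 FPKM of 2i+LIF (log2 difference -1.03, SE 0.15, limma adjusted p = 0.00449). Against 2i, Foxd3 was 2.53-fold higher in LIF+PD (log2 difference 1.25, limma adjusted p = 0.00147) and 2.23-fold higher in CH+LIF (1.07, limma adjusted p = 0.00344). The differences from 2i+LIF were 0.21 in LIF+PD, with a 95% interval of -0.14 to 0.57, and 0.04 in CH+LIF, with a 95% interval of -0.32 to 0.39, and neither was called (limma adjusted p = 0.338 and 0.882). Foxd3 also acts in the neural crest. Of the neural crest markers, Sox10 was at most 0.11 FPKM in any culture. The summed level of 4 neural crest markers was 30.9 to 33.4 FPKM in 2i+LIF and 36.8 to 38.2 in 2i. It was 21.5 to 22.8 FPKM in LIF+PD and 20.4 to 20.7 in CH+LIF. The sum was highest in 2i, where Foxd3 was lowest, but it mainly followed Tfap2a. Tfap2a was at 15.6 and 14.8 FPKM in 2i+LIF and 19.5 and 20.03 in 2i. It was at 1.87 and 2.30 FPKM in LIF+PD and 4.77 and 5.02 in CH+LIF. Ngfr was instead highest in LIF+PD, at 19.5 and 18.3 FPKM, and Snai2 was at most 1.32 FPKM in any culture. Gm12688, a noncoding gene that starts 1316 bases from Foxd3 and points away from it on the opposite strand, was at 2.19 and 4.14 FPKM in 2i and at 3.23 to 6.41 FPKM in the other cultures.

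The cultures of the conditions compared did not overlap for 5 of the 6 genes in 2i against 2i+LIF (61.0% of all genes tested), 5 in LIF+PD against 2i+LIF (66.6%), 3 in CH+LIF against 2i+LIF (67.0%), 5 in LIF+PD against 2i (62.7%), 6 in CH+LIF against 2i (63.3%) and 5 in CH+LIF against LIF+PD (68.4%). With 2 cultures a condition most genes are thus free of overlap, and little is read from it alone. The deposited bounds of the cultures were apart for 4, 5, 0, 5, 5 and 4 of the 6 genes in the same comparisons. The share over all genes was not taken for the bounds, so nothing about the 6 genes is read from these counts.

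Among the conditions with 2 of the 3 components, 5 of the 6 genes were called in each pairing. LIF+PD against 2i gave 3 higher (Otx2, Pou3f1, Foxd3) and 2 lower (Zic2, Grhl2), where 25.1% of all genes were called. CH+LIF against 2i gave 1 higher (Foxd3) and 4 lower (Otx2, Zic2, Zic5, Grhl2), where 23.9% were called. CH+LIF against LIF+PD gave 1 higher (Grhl2, log2 difference 0.74, limma adjusted p = 0.00976) and 4 lower, where 30.4% were called. This count was lower without any 1 culture of these conditions, and fewer of all genes were called then as well. Otx2 had the largest difference of the 6 genes in the last of these, with a log2 difference of -4.02 (limma adjusted p = 2.64e-05), and Zic2 had -1.03 (limma adjusted p = 0.00336). Zic5 was called in both comparisons with CH+LIF, with differences of -1.06 from 2i (limma adjusted p = 0.0189) and -0.97 from LIF+PD (limma adjusted p = 0.0202), and both calls were lost without either CH+LIF culture, with adjusted p values from 0.0585 to 0.0924. The first was also lost without either 2i culture (adjusted p = 0.0663 and 0.0672) and the latter without either LIF+PD culture (adjusted p = 0.103 and 0.0523). For Grhl2, the call between CH+LIF and LIF+PD was lost without replicate 2 of CH+LIF (0.72, adjusted p = 0.0506) or replicate 2 of LIF+PD (0.63, adjusted p = 0.0596). The summed FPKM of the 6 genes was 145 to 153 in 2i and 140 to 160 in LIF+PD, and 60.1 to 78.0 in 2i+LIF and 60.4 to 61.5 in CH+LIF.

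Among the paralogs of these genes, Grhl1, Grhl3 and Foxd1 passed the filter on low values. Others did not pass, among them Otx1 at no more than 0.474 FPKM and Pou3f2 at no more than 0.551 FPKM. Grhl3, the grainyhead gene of surface epithelium, was highest in LIF+PD, where Grhl2 was lowest. It was at 14.9 and 16.1 FPKM in 2i+LIF, 12.4 and 9.82 in 2i, 24.2 and 25.4 in LIF+PD, and 6.59 and 8.32 in CH+LIF, and was called as higher in LIF+PD (0.64, limma adjusted p = 0.0192) and as lower in CH+LIF (-0.97, limma adjusted p = 0.00459). Grhl1 stayed between 0.71 and 1.56 FPKM and was not called against 2i+LIF, and Foxd1 was lower in 2i (-0.81, limma adjusted p = 0.029).

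**Figure D3:**
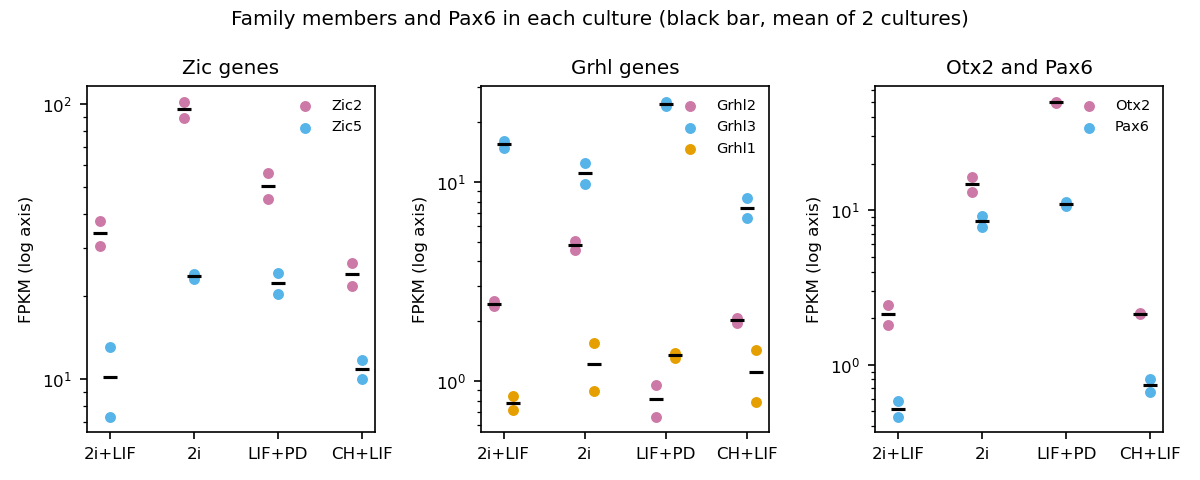
FPKM (vertical axis, logarithmic) by condition (horizontal axis) of Zic2 and Zic5, of Grhl2, Grhl3 and Grhl1, and of Otx2 and Pax6, with a point for each culture and a bar at the mean of 2 cultures. Grhl2 was lowest and Grhl3 highest in LIF+PD, and Pax6 was high in the same conditions as Otx2, 2i and LIF+PD.

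Other genes of the formative and primed epiblast, 19 in all with 18 tested, moved in part with these factors. In 2i, 8 were higher and 1 lower, with a median log2 difference of 0.59 beside 0.04 over all genes tested. In LIF+PD, 10 were higher and 2 lower (median 0.48, beside 0.03), and in CH+LIF, where none of Otx2, Pou3f1, Zic2, Zic5, Foxd3 and Grhl2 was called, 11 were higher and 3 lower (median 0.90, beside 0.01). Among all genes tested, 9.77%, 14.8% and 12.2% were higher in 2i, LIF+PD and CH+LIF, and 8.86%, 10.4% and 13.3% lower. Dnmt3a, a de novo DNA methyltransferase, rose in each, with log2 differences of 2.97, 2.37 and 1.43 in 2i, LIF+PD and CH+LIF (limma adjusted p = 0.000140, 0.000288 and 0.00240). Utf1, a chromatin factor of pluripotent cells, also rose in each (1.80, 1.74 and 2.15). Rbpj, the DNA-binding partner of Notch, rose by 0.56, 1.22 and 0.85, so that its largest difference was in LIF+PD. Lef1, a beta-catenin partner, rose in 2i (2.49) and CH+LIF (1.88), and its difference in LIF+PD was -0.23 (limma adjusted p = 0.498). Tcf15, a bHLH factor of primed epiblast, rose in LIF+PD (1.08) and CH+LIF (2.05). Etv4, an ERK-responsive ETS factor, fell in 2i (-3.15) and LIF+PD (-2.02) and rose in CH+LIF (1.94). Tcf7l1, which represses naive genes, rose in LIF+PD (0.53) and fell in CH+LIF (-1.55). Fgf5, the usual marker of post-implantation epiblast, did not pass the filter, at 0 in both 2i+LIF cultures and at no more than 0.473 FPKM, in LIF+PD.

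**Figure D4:**
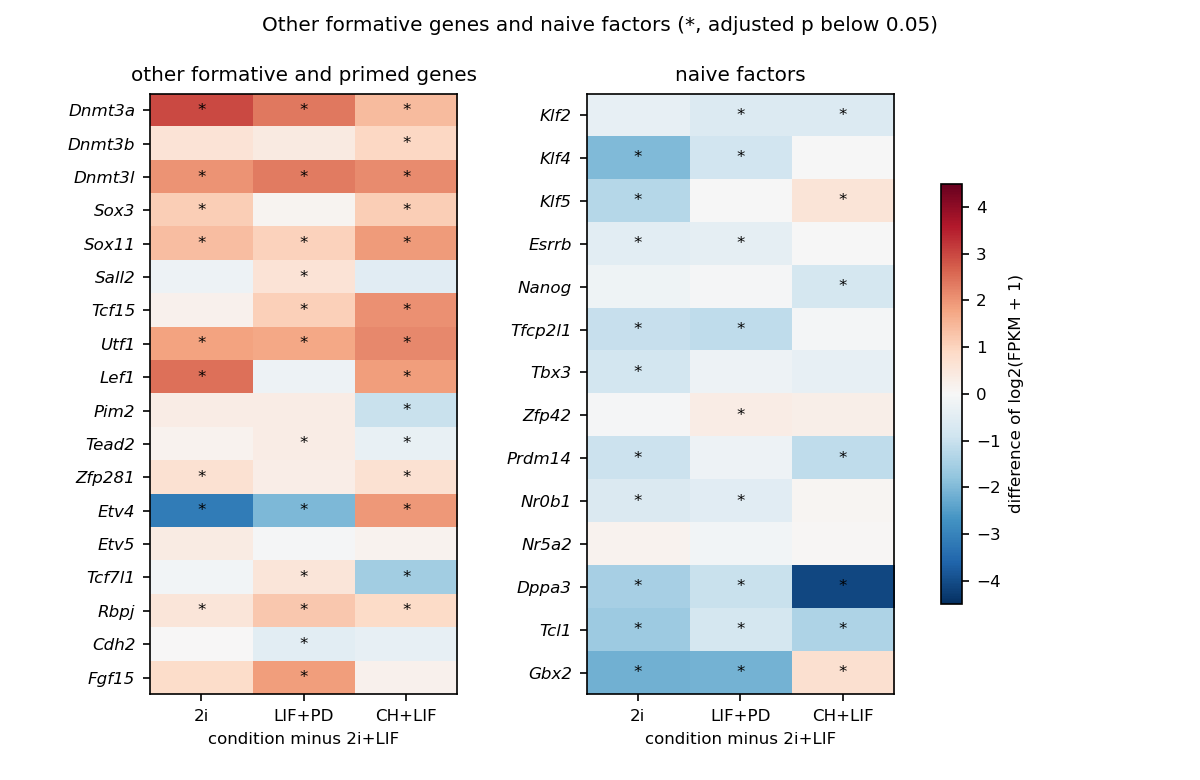
Difference of log2(FPKM + 1) from 2i+LIF (colour, red higher and blue lower) for the 18 tested formative and primed genes and the 14 naive factors (rows) in 2i, LIF+PD and CH+LIF (columns), with an asterisk at an adjusted p below 0.05. Of the formative genes 8, 10 and 11 were called as higher, and of the naive factors 10, 8 and 5 were called as lower.

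Of 14 naive factors, all of them tested, 10 were lower and 4 not called in 2i (median log2 difference -0.90), 1 was higher and 8 lower in LIF+PD (median -0.46), and 2 were higher and 5 lower in CH+LIF (median -0.05). Of all genes tested, 9.77%, 14.8% and 12.2% were called as higher in these comparisons and 8.86%, 10.4% and 13.3% as lower. The medians over all genes tested were 0.04, 0.03 and 0.01. Klf4, a STAT3 target of the naive network, fell in 2i (-2.00, limma adjusted p = 0.000140) and LIF+PD (-0.85, limma adjusted p = 0.00306), the conditions in which Otx2 rose. Gbx2, a homeobox gene that can sustain self-renewal, fell in the same 2 conditions (-2.17 and -2.12) and rose in CH+LIF (0.71). Dppa3, a marker of naive cells and germ cells, fell in all 3 (-1.498, -0.997 and -4.10). The partners Pou5f1 (Oct4), Sox2 and Sall4 were not called in 2i, Sall4 was higher in LIF+PD (0.55, limma adjusted p = 0.00440) and Sox2 was lower in CH+LIF (-0.48, limma adjusted p = 0.0230). Of 6 pathway readouts, 3 were lower in 2i, 2 were lower in LIF+PD and 4 were higher in CH+LIF.

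Epithelial junction and surface genes, the class of gene that Grhl2 acts on, were 14, of which 13 were tested. In 2i, 3 were higher and 4 lower (median log2 difference -0.34), in LIF+PD 3 and 3 (median -0.17), and in CH+LIF 4 and 4 (median -0.12). The shares over all genes tested were 9.77%, 14.8% and 12.2% higher and 8.86%, 10.4% and 13.3% lower. Cldn6, a claudin, was higher in all 3 conditions (1.83, 1.24 and 1.11), as was Esrp1, an epithelial splicing factor (1.89, 1.29 and 1.61). Epcam was higher in 2i (1.25, limma adjusted p = 0.00117) and in CH+LIF (1.29, limma adjusted p = 0.00122). Cldn3 fell in LIF+PD (-2.11, limma adjusted p = 0.000199) and in CH+LIF (-0.98, limma adjusted p = 0.00398). Spint1, a protease inhibitor, fell in 2i (-1.33, limma adjusted p = 0.000416). The part of Grhl2 in the levels of these epithelial genes was not tested. All of the genes of these lists called in any of the 6 comparisons kept their direction under the other scalings tried (TPM, size factors and quantile normalization). Some calls were lost under 1 or more of these scalings. Against 2i+LIF these were 1 of 31 in 2i, 5 of 31 in LIF+PD and 4 of 36 in CH+LIF. They were 6 of 28 in LIF+PD against 2i, 3 of 28 in CH+LIF against 2i and 2 of 38 in CH+LIF against LIF+PD.

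Markers of other cell types also differed between conditions, and their part in the levels of the 6 genes was not tested. The summed level of 5 primitive streak markers was 12.1 to 15.02 FPKM in 2i+LIF, 12.5 to 23.7 in 2i, 8.40 to 8.56 in LIF+PD and 28.4 to 47.5 in CH+LIF. The list did not move as 1 group: from 2i+LIF to CH+LIF, T went from 4.86 and 3.64 FPKM to 36.3 and 18.5, whereas Gsc went from 7.71 and 6.26 to 0.654 and 0.499. The 5 trophoblast markers summed to 32.2 to 36.5 FPKM in 2i+LIF, 42.3 to 44.4 in 2i, 49.2 to 57.2 in LIF+PD and 19.3 to 19.9 in CH+LIF. Most of each sum was Tfap2c, at 20.97 and 27.2 FPKM in 2i+LIF and 29.97 and 25.5 in 2i. Tfap2c was at 45.4 and 52.8 FPKM in LIF+PD and 15.6 and 16.8 in CH+LIF. Cdx2, which defines the lineage, was at 10.2 and 7.91 FPKM in 2i+LIF, 12.2 and 10.6 in 2i, at no more than 0.0960 in LIF+PD, and at 1.90 and 0.733 in CH+LIF. The 5 endoderm markers summed to at most 4.17 FPKM, and Sox17 was at 0 in both 2i cultures. The 5 fibroblast markers ranged from 0.270 to 17.1 FPKM, the highest in replicate 2 of CH+LIF, where Postn was at 14.1 FPKM against at most 0.0338 in the others.

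The genes most like each factor were taken from the 3 with the highest Pearson's r of log2(FPKM + 1) over the 8 cultures among tested genes with a mean FPKM of at least 5 in at least 1 condition. The coefficients are a description of these cultures, which share their line and, in pairs, their medium. For Otx2 they were Igdcc4 (r = 0.996), Zrsr1 (0.993) and Map4k4 (0.990). For Pou3f1 they were Rtkn2 (0.985), Trim71 (0.981) and Ttyh3 (0.979). For Zic2 they were Kcnk1 (0.989) and Utrn (0.986), and for Zic5 Tmem106c (0.975), Cks1b (0.966) and Cgnl1 (0.966). For Foxd3 they were Kbtbd11 (0.979) and Gmppa (0.970), and for Grhl2 Stim1 (0.989), Srpk2 (0.986) and Ephx2 (0.985). None of Otx2, Zic2, Zic5 and Foxd3 was among the 3 nearest genes of another factor. Pou3f1 and Grhl2 could not be chosen, because their highest condition means, 3.55 and 4.82 FPKM, were below 5. Of the 18 genes chosen in this way, 12 were also chosen with a pseudocount of 0.1 and 2 with Spearman's rank correlation. A gene that tracks Grhl2 closely need not vary as much: Srpk2 lay between 7.42 and 9.80 FPKM, whereas Ephx2, an epoxide hydrolase, was at 105 and 103 FPKM in 2i and at 35.9 and 29.6 FPKM in LIF+PD.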

How the data were processed

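RNA-seq values of 8 cultures in 4 conditions were used. Per the methods, single-end reads were aligned with tophat2 to mm10 with Ensembl genes, and only uniquely placed reads were kept. Per the labels, Cufflinks and Cuffdiff were also used (versions are not given in the sources used here). The authors deposited FPKM values per gene for each culture separately, and beside each value the 2 bounds of an interval whose confidence level is not stated. The methods describe rRNA-depleted RNA and the labels polyA RNA. The methods give a strand setting for read counts, which were not used here. For the FPKM values the use of strand is not given in the sources used here. No rescaling was applied.

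Values of 22 repeated identifiers were summed, which left 38991 genes. A gene was kept if 2 or more cultures had an FPKM of 1 or above, and the 12927 genes kept were tested with limma 3.58.1 in R 4.3.3 on log2(FPKM + 1) with a mean-variance trend. All 4 conditions entered 1 fit with 4 residual degrees of freedom, and 6 contrasts and an F-test were taken at a Benjamini-Hochberg adjusted p below 0.05, two-sided. Intervals are 95% intervals of the fit, not adjusted for the number of genes. Read totals are unknown: relative depth was estimated from the ratios of low FPKM values, of which 13.6% to 22.4% gathered at a single value, so whole reads were not recovered and no counting intervals are given.

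The 6 genes and all gene lists were chosen with earlier results of these data known. Named genes were the 6 factors, the members of the lists, the 3 genes most like each factor, and annotated genes within 5 kb. Coordinates are the deposited ones with 1 added to the start. Neighbours and exons are from GENCODE M21 and promoters from RefSeq (GRCm38.p6), both of the same build. Python 3.11.15, numpy 2.4.6, pandas 2.3.3 and matplotlib 3.10.9 were used, and the limma procedure was tested on simulated data. Alternatives were pseudocounts of 0.1 and 5, no filter or an FPKM of at least 5, TPM, size factors, quantile normalization, no trend, fits of the compared conditions alone, a replicate block, and leaving out each culture. A few genes that the naming rule chose are not reported here.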

Additional observations from a re-analysis of the deposited data

How the results depend on the processing

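Of the 25 differences of the 6 genes that were called, 17 were called under every alternative in which the gene was tested, and over all alternatives 414 of 442 values kept direction and call, 28 lost the call and 0 reversed. Of the 11 not called, 5 reversals occurred, all when 1 culture was left out and none of them called. In CH+LIF against 2i+LIF, without replicate 2 of 2i+LIF, the difference was -0.14 for Otx2, -0.24 for Zic5 and -0.11 for Foxd3, and that of Foxd3 was -0.11 without replicate 2 of CH+LIF. With 1 culture left out, the difference of Zic5 ranged from -0.24 to 0.52 in CH+LIF against 2i+LIF and from -0.21 to 0.032 in LIF+PD against 2i, above 0 without replicate 2 of LIF+PD. The number of the 6 genes called changed in some fits that left out 1 culture of the conditions compared. Fewer of all genes were called in those fits as well, so little is read from the lower counts. The culture left alone in a condition is then assumed to vary like the others.

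The filter at an FPKM of 5 removed Pou3f1 and Grhl2 and gave 3 called genes for LIF+PD against 2i+LIF, 3 for LIF+PD against 2i and 3 for CH+LIF against LIF+PD. Fitting 2i+LIF and LIF+PD alone gave 3, with fewer cultures to estimate the spread (Zic2 adjusted p = 0.0719, Zic5 adjusted p = 0.0562). In the corresponding fit of 2i, Zic5 had an adjusted p of 0.0607. Zic2 in LIF+PD was also not called without the filter (adjusted p = 0.0790) or without the trend (adjusted p = 0.0585), and the cause was not tested. Rescaling to TPM moved the median difference of all genes in CH+LIF from 0.01 to 0.18 and in LIF+PD from 0.03 to 0.16, and gave 1 called gene in CH+LIF, Pou3f1 (0.83).

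Deviations from the condition mean correlated between same-numbered cultures at -0.03 to 0.09 over genes. Correlations this weak do not show whether the replicate numbers pair the cultures. With a replicate block, 2547, 3470 and 3519 of all genes were called in 2i, LIF+PD and CH+LIF against 2i+LIF, beside 2408, 3263 and 3286 without it, and 1 of the 6 genes in CH+LIF, Zic2 (-0.47, adjusted p = 0.00772). Pou3f1 was under 1 FPKM in 5 of 8 cultures, and read totals are unknown.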
